A study of Mus musculus with 15 samples.

Results

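Cytochrome c oxidase, the last complex of the mitochondrial respiratory chain, was followed in mouse plasma cells through 10 nuclear genes that encode its subunit isoforms or a close relative: Cox6a1, Cox6a2, Cox7a1, Cox7a2, Cox7a2l, Cox4i1, Cox4i2, Cox8a, Cox6b1 and Cox6b2. They were taken by symbol from the 22339 genes of the table, and the values of their 24 transcripts were summed per gene. The set was chosen by measured values of these libraries: Cox6a2, the heart and muscle form of subunit VIa, was seen to be higher in cells without B220 and lower in bone marrow. The B220 and bone marrow differences of the members are therefore given as a description, with no test.

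Plasma cells were sorted from untreated, unimmunized male C57Bl6/N mice of 8 to 12 weeks as CD138-high, Ly6g- and CD11c- cells, about 30000 per subset, by 2 rounds of sorting. From the spleen came cells that kept B220, with or without 2NBDG (B220+2NBDG+ and B220+2NBDG-), and cells that lacked it, with or without 2NBDG (B220-2NBDG+ and B220-2NBDG-). The last group, BMPC, came from bone marrow and had the markers B220- 2NBDG+. B220 is a form of CD45 that B cells carry and many plasma cells lose, and 2NBDG is a fluorescent glucose analogue that marks cells which take up glucose. Each group had 3 libraries, described as biological replicates. The labels do not say whether animals were pooled or whether groups were sorted from the same mice.

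Cytochrome oxidase passes electrons from cytochrome c to oxygen and pumps protons. Its catalytic core is encoded by mitochondrial DNA, and nuclear genes encode the surrounding subunits, several of which exist in pairs: a form found in most tissues, called the liver type, and a form restricted to a few tissues, such as the heart type of striated muscle. Isoform choice is known to alter how the enzyme responds to ATP, ADP and oxygen. Cox6a2 is also used as a marker of plasmacytoid dendritic cells.

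The coding sequence of Cox6a2, whole, and that of Cox6a1 from base 46 to its end are shown because the share of Cox6a2 rests on telling the transcripts apart. They were read from the GENCODE M21 transcripts of GRCm38, 5′ to 3′, and capitals mark runs of at least 8 identical aligned bases. Cox6a1 lies at chr5:115345642-115348981 and Cox6a2 at chr7:128205435-128206387, both on the minus strand.
Cox6a1: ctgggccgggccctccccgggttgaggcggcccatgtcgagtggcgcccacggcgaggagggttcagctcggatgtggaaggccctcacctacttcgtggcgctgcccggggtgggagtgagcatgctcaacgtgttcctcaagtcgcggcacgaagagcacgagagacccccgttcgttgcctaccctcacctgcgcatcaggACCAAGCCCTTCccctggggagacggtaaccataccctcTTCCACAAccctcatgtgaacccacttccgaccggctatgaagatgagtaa
Cox6a2: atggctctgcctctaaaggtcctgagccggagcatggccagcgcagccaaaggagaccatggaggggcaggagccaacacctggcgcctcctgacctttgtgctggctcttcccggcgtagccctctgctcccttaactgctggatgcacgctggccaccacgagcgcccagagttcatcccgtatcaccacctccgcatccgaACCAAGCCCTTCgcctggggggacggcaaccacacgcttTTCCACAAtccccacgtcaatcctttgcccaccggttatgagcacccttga
The open reading frames span 339 and 294 nt including the stop codon, and 66.6% of 290 aligned positions were identical. The longest identical run was 12 nt, and the transcripts of the pair shared 0 stretches of 31 nt. No member shared a 31-nt stretch with another member. Cox6a2 and Cox4i1 shared sequence with a gene on the opposite strand. In Cox6a2 this covered bases 611 to 680 of the 680-nt transcript, behind the coding part, and matched Itgad, an integrin alpha chain gene, in 6.2% of its 31-nt stretches. In Cox4i1 it was the 5′ end, which matched Emc8 in 12.5% of the stretches. Reads from such overlaps cannot be assigned to a strand without stranded counting, which the sources used here do not state. Itgad ranged from 1.81 to 33.1 TPM.

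Levels are given as TPM, transcripts per 1000000, a scale that is corrected for transcript length and was recomputed here without the immunoglobulin genes. Estimated depth was 17305744 to 24877052 reads per library, of which 4407359 to 9932504 fell outside those genes. Replicates of a group correlated at 0.939 to 0.976 (Pearson r across genes). All 6 plasma cell markers were detected. Their summed level, nearly all of it from Jchain, the joining chain of secreted antibody (group means 27110 to 101800 TPM), was lowest in the B220+2NBDG- group, at 23900 to 35520 TPM. It reached 46810 to 54910 TPM among B220+2NBDG+ libraries, 52890 to 59680 among B220-2NBDG- libraries, 77170 to 86270 among B220-2NBDG+ libraries and 87150 to 125800 TPM in bone marrow. Jchain and Tnfrsf17, the BCMA receptor, were called higher (limma, Benjamini-Hochberg adjusted p under 0.05) in 2NBDG+ and in B220- spleen cells. Sdc1, Prdm1, Irf4 and Xbp1 were not called in these comparisons or in bone marrow. The third library of every spleen group stood apart in 5 erythroid markers, with a summed 1029 to 3557 TPM against at most 215.8 TPM in the other spleen libraries.

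The liver-type and other widely expressed isoforms made up nearly all of the message. Cox4i1, the common form of subunit IV, was the highest member with 1124 to 1305 TPM over the 15 libraries, and its group means differed by 1.08-fold at most. Cox6b1, the common form of subunit VIb at the face towards cytochrome c, had 601.1 to 791.8 TPM, with group means within 1.15-fold. The common VIa form Cox6a1 had 291.5 to 616.7 TPM, and its group means spanned 1.39-fold. Cox7a2, the liver form of VIIa, had 215.1 to 306.1 TPM and Cox8a, the common form of subunit VIII, 171.2 to 312.8 TPM, each within 1.18-fold between group means. Cox7a2l, a relative of VIIa known for joining complexes III and IV into supercomplexes, had 140.4 to 214.7 TPM and a 1.24-fold span. For all 6 genes the libraries of every pair of neighbouring groups overlapped when groups were ordered by mean. Groups further apart in that order did not always overlap, and each of the 6 genes had such a pair. For example, BMPC lay below B220-2NBDG- for Cox6a1 and Cox8a and above it for Cox7a2l. No share of all genes is given for these pairs, so nothing is read from them. Short transcripts carried much of the signal of some members. In Cox4i1 a 476-nt transcript held 59.2% of the gene's TPM, and in Cox6b1 a 354-nt transcript with an effective length of 105 nt held 69.4%, so the order of Cox4i1 and Cox6b1 against the rest depends on these models.

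The restricted isoforms were lower and fell into a detected and a nearly absent pair. Cox6a2 and Cox4i2, the form of subunit IV known from lung and placenta, were found in every library with 14.1 to 112.9 and 3.23 to 64.1 TPM, on 75.3 to 416.8 and 13 to 199 estimated reads. Cox7a1, the heart form of VIIa, had 0.699 to 5.48 TPM on 1 to 11 estimated reads. Cox6b2, the testis form of VIb, had at most 5.99 TPM and 11 reads and was listed at 0 in 3 libraries. All 10 members passed the filter of 1 TPM in 3 libraries, Cox7a1 and Cox6b2 at a depth where single reads move the values. The muscle form of subunit VIII, Cox8b, which is no member, was listed at 0 in 14 libraries and had 1 read in the other. Cox6a2 was thus the one heart-type isoform with more than 11 reads in a library.

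**Figure D1:**
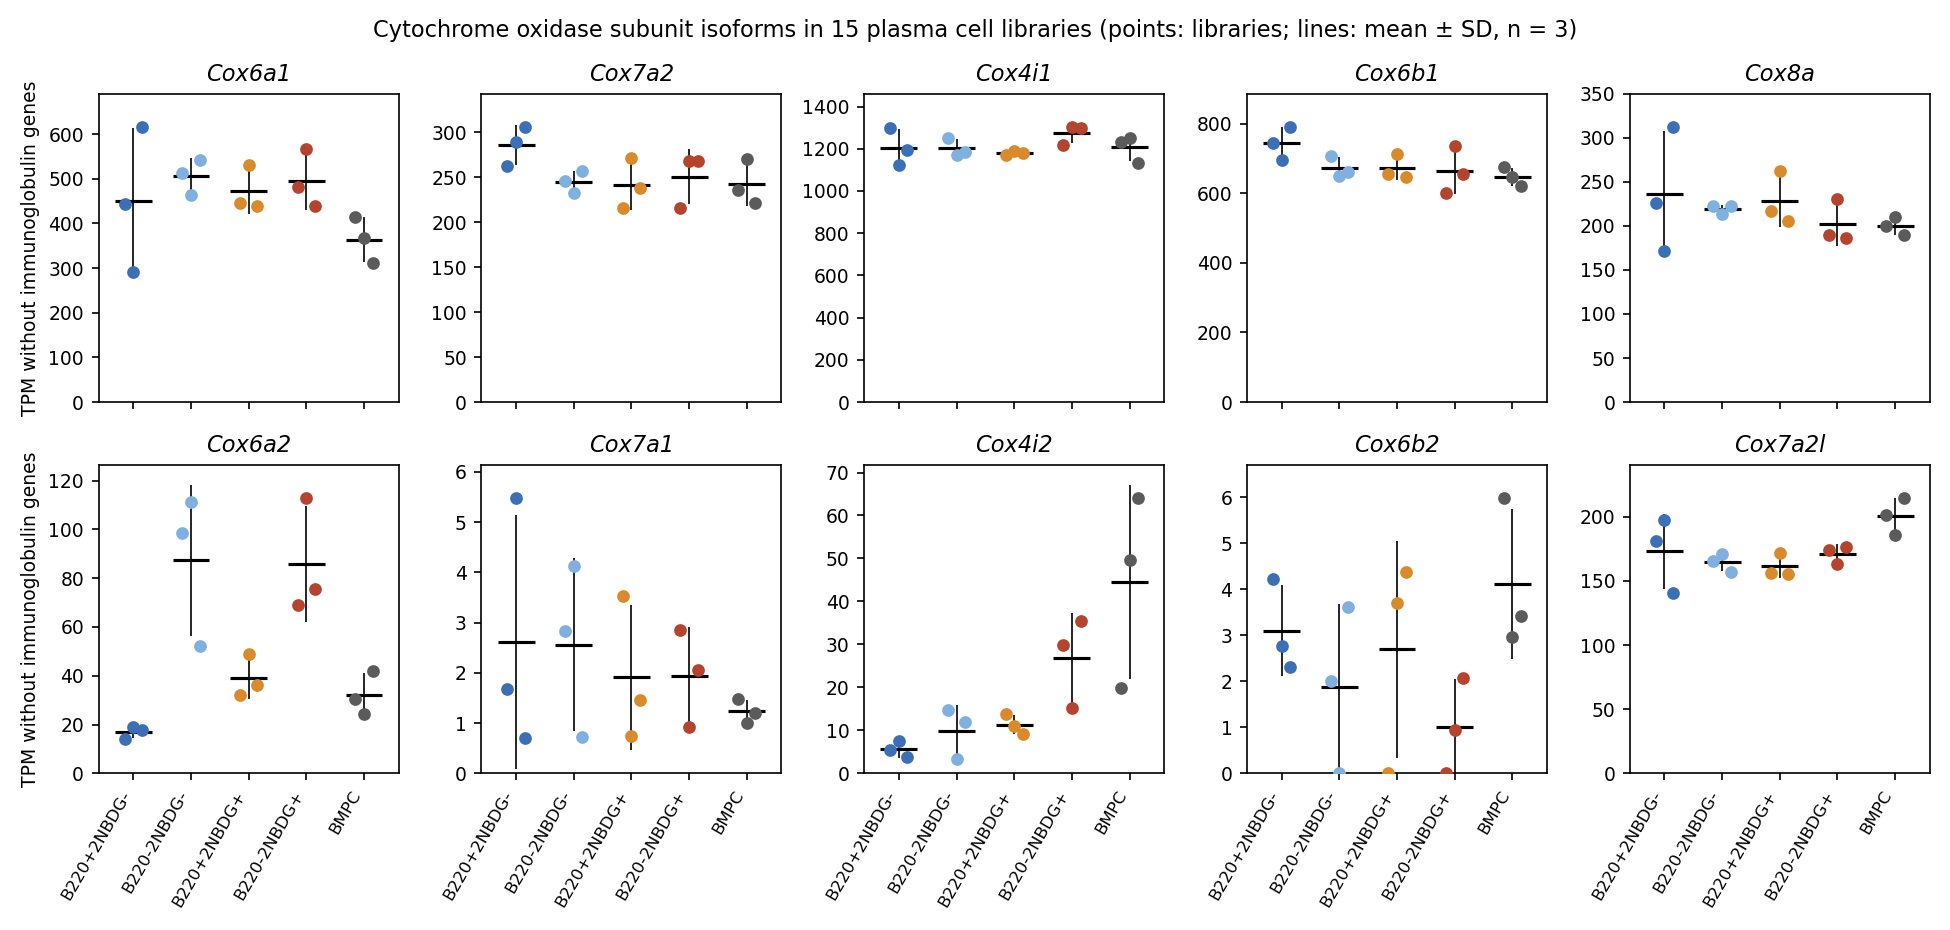
Level of each of the 10 genes (vertical axis, TPM without immunoglobulin genes, starting at 0) in the 5 groups; points are libraries, horizontal lines group means and vertical lines the SD (n = 3). Cox4i1 sits between 1124 and 1305 TPM in all 15 libraries, while Cox6a2 is highest in the B220- spleen groups and Cox4i2 highest in BMPC.

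Cox6a2 was highest in the spleen groups without B220 and lowest in B220+2NBDG- cells. The libraries of B220+2NBDG- had 14.1, 19.2 and 17.6 TPM, and those of B220-2NBDG- had 98.6, 111.1 and 52.0 TPM. No library of the first group reached any of the second, and the means differed 4.71-fold on the log2(TPM + 1) scale. In cells that had taken up 2NBDG the values were 32.1, 49.0 and 36.4 TPM with B220 and 68.9, 112.9 and 75.6 TPM without it. These libraries did not overlap either, and the difference was 2.14-fold. The share of all genes that separate in this way for B220 is not given here, so nothing is read from the separation. Averaged over 2NBDG the log2 difference was 1.67 ± 0.21 (SE), the 17th highest of 11246 tested genes. This rank is a description only, since the difference helped to choose the set.

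Bone marrow plasma cells had 30.7, 24.4 and 41.8 TPM of Cox6a2. All 3 values lay below those of the spleen B220-2NBDG+ group, which shares their B220 and 2NBDG markers, with a log2 difference of -1.38 ± 0.29 (SE). Between these groups, 19.1% of all tested genes were lower in bone marrow without overlap. The BMPC libraries of Cox6a2 also lay below the B220-2NBDG- libraries, overlapped those of B220+2NBDG+ and lay above those of B220+2NBDG- by 1.82-fold. No share of all genes is given for these further separations, so nothing is read from them. In order of mean level the groups ran from B220-2NBDG- (87.3 ± 31.1 TPM, SD, n = 3) and B220-2NBDG+ (85.8 ± 23.7 TPM), whose libraries overlapped, to B220+2NBDG+ (39.2 ± 8.78 TPM) and BMPC (32.3 ± 8.81 TPM), which overlapped too, and to B220+2NBDG- (17.0 ± 2.59 TPM). In bulk libraries, fewer cells with a transcript and less of it per cell cannot be told apart.

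The rule that chose the members named no 2NBDG difference, so this comparison was tested, although earlier results of these data were known. Cox6a2 in 2NBDG+ against 2NBDG- cells, averaged over B220, differed by 0.58 ± 0.21 (SE, 95% interval 0.14 to 1.02, log2), with a limma p of 0.0140 and an adjusted p of 0.121 over all genes, so it was not called. Separation within a B220 class has no share of all genes beside it here, so nothing is read from it. Within B220+ cells the groups did not overlap (2.22-fold higher in 2NBDG+), and within B220- cells they did (1.01-fold). The difference between these responses, the interaction, was -1.13 ± 0.41 on the log2 scale (limma p 0.0159, adjusted p 0.745) and was not called. The interaction is also the difference between the B220 differences with and without 2NBDG. Since the B220 difference helped to choose Cox6a2, this p carries no weight as a test.

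Expressed as a share of subunit VIa message, a ratio within each library that needs no scaling between libraries, Cox6a2 made up 4.01 ± 1.88% (SD, n = 3) of the B220+2NBDG- message and 14.7 ± 5.41% of the B220-2NBDG- message. With 2NBDG uptake the shares were 7.61 ± 0.86% for B220+ cells and 14.6 ± 2.06% for B220- cells, and the BMPC share was 8.32 ± 3.06%. Single libraries ranged from 2.77% to 19.3%, so Cox6a1 remained the larger part in all of them. The summed level of the pair was 467.4 ± 162, 593.4 ± 18.7, 510.9 ± 59.7, 581.0 ± 86.2 and 396.0 ± 45.7 TPM in the order of these shares. The 2NBDG difference of the share was 1.74 percentage points (two-sided exact permutation test within B220 strata, p = 0.355, adjusted over the 4 pairs tested p = 0.69). It was 3.60 points in B220+ cells and -0.117 points in B220- cells.

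**Figure D2:**
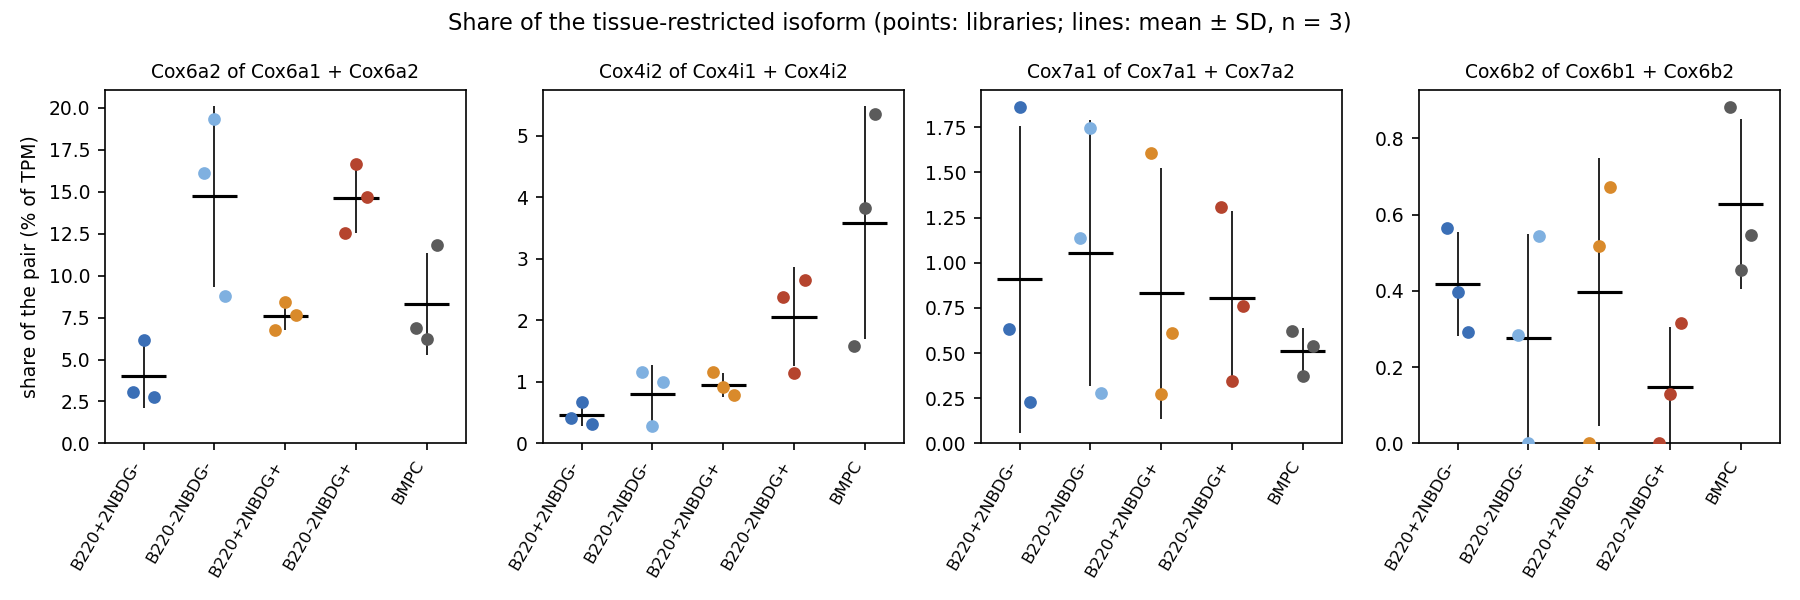
Share of the second, tissue-restricted isoform in the summed TPM of its pair (vertical axis, %, separate scale per panel) for Cox6a, Cox4, Cox7a and Cox6b; points are libraries, lines the mean and SD (n = 3). The Cox6a2 share reaches 19.3% in a B220-2NBDG- library, and the other restricted isoforms stay below 6% of their pairs.

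Markers of other cells known for Cox6a2 were low or were not called with it. Of 8 plasmacytoid dendritic cell markers, 5 reached 1 TPM in a library, and their sum was 12.0 to 67.6 TPM over all libraries. Siglech, a defining surface lectin of these cells, had group means of 0.522 to 1.24 TPM, Klk1 at most 0.736 TPM, and Cd300c was listed at 0 in all libraries of 3 groups. The highest of the list were Lair1, also found on other leukocytes, with group means of 9.65 to 39.6 TPM, and the chemokine receptor Ccr9 with 3.52 to 13.9 TPM. None of the 4 tested genes was called in the B220 comparison (limma), and 2 had an unadjusted p under 0.05 in opposite directions. Ccr9 differed by 0.58 ± 0.19 (SE, log2, adjusted p 0.0811), in the direction of Cox6a2, and Pacsin1 by -0.69 ± 0.22 (adjusted p 0.0717). Striated muscle markers summed to 68.4 to 167.3 TPM. Mylpf, a myosin light chain, gave most of it with group means of 77.9 to 97.3 TPM and a B220 difference of 0.16 ± 0.22 (SE, log2, adjusted p 0.704). Tnnt3, a troponin at 9.53 to 21.3 TPM by group mean, differed by 0.57 ± 0.24 in the direction of Cox6a2 (adjusted p 0.174). None of the 4 tested muscle markers was called for B220 (limma), and 1, Tnnt3, had an unadjusted p under 0.05. Ckm, the muscle creatine kinase, had group means under 1 TPM, and Mb, myoglobin, was at 0 in every library of 4 groups. Myh6, a cardiac myosin, did not pass the filter. It averaged 0.940 TPM in B220-2NBDG- cells (0.335 to 1.62 TPM) and 0.0105 TPM in B220+2NBDG- cells. In 2NBDG+ cells it averaged 0.175 TPM without B220 and 0.266 TPM with it, and in BMPC 0.109 TPM. Brown fat markers summed to at most 1.91 TPM.

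Other cell markers moved with the same groups. The 6 B cell markers summed to 319.4 to 1059 TPM for B220+2NBDG- cells, 270.6 to 484.9 for B220+2NBDG+ cells, 218.8 to 365.1 for B220-2NBDG- cells, 114.4 to 231.7 for B220-2NBDG+ cells and 91.9 to 153.3 TPM for BMPC, and 4 of 6 were called lower in B220- cells (limma, adjusted p). The 6 T cell markers summed to 19.2 to 362.7 TPM in the spleen groups and 18.0 to 37.8 TPM in BMPC, with 3 of 5 tested called lower in 2NBDG+ cells. In BMPC against spleen B220-2NBDG+ cells 1 of the 5 was called higher (limma). This was Cd4, at 13.1 ± 8.32 TPM in BMPC (SD, n = 3) and 2.84 ± 1.72 TPM in that spleen group. Neutrophil markers summed to 4755 to 7978 TPM in BMPC against 9.23 to 399.6 TPM in spleen libraries, and 5 of 6 were called higher in BMPC (limma). For B220 all 6 differences lay above 0, with a median of 0.48 (log2), and Mpo was called higher in B220- cells (1.58 ± 0.44, SE, limma adjusted p 0.0405). The 6 markers of macrophages, monocytes and conventional dendritic cells summed to 46.0 to 416.6 TPM in 2NBDG- and 112.3 to 1004 TPM in 2NBDG+ spleen libraries, with none called in that comparison (limma; 4 at an unadjusted p under 0.05). The part of these cells, and of Jchain and Tnfrsf17, in the differences of Cox6a2 and Cox4i2 was not tested.

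Cox4i2 followed another order of groups than Cox6a2. The 2NBDG- libraries had 5.36, 7.60 and 3.79 TPM with B220 and 14.7, 3.23 and 11.8 TPM without it. The 2NBDG+ libraries had 13.8, 11.0 and 9.27 TPM with B220 and 29.8, 15.2 and 35.5 TPM without it, and the BMPC libraries 19.9, 49.7 and 64.1 TPM. Values in 2NBDG+ cells lay above those in 2NBDG- cells of the same B220 class without overlap, by 1.91-fold with B220 and 2.77-fold without it. Such separation in both strata, in the higher direction, was seen for 2.3% of all tested genes. In the fit the 2NBDG difference was 1.20 ± 0.36 (SE, log2; limma p 0.00474, adjusted p 0.0622), which was not called. It was called without B220-2NBDG- library 1, B220-2NBDG+ library 2 or BMPC library 1 (adjusted p 0.0435, 0.0455 and 0.0399). The interaction was 0.54 ± 0.71 (limma adjusted p 0.979).

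The share of Cox4i2 in subunit IV message was 0.466 ± 0.184% (SD, n = 3) with B220 and 0.809 ± 0.47% without it in 2NBDG- cells. In 2NBDG+ cells it was 0.954 ± 0.197% with B220 and 2.06 ± 0.804% without it, and in bone marrow 3.59 ± 1.89%. In the spleen it rose with 2NBDG by 0.871 points, 0.488 in B220+ and 1.25 in B220- cells, in the two-sided exact permutation test (p = 0.01, adjusted over the 4 pairs p = 0.04; the smallest p the 400 arrangements allow is 0.005). With same-numbered libraries exchanged as pairs the exact permutation p was 0.0312, the smallest that 64 arrangements allow, and the adjusted p was 0.125. An adjusted p under the threshold would have needed other isoform pairs at so low a p too, so that test could not pass on Cox4i2 alone. The call was lost in 7 of 12 tests with 1 spleen library left out. Those libraries were 1 and 3 of B220+2NBDG-, all 3 of B220-2NBDG-, and 1 and 2 of B220+2NBDG+, and the adjusted p without them was 0.06 to 0.19.

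The B220 difference of Cox4i2 was 0.84 ± 0.36 (SE, log2) and the bone marrow difference 0.64 ± 0.50, both given as description. Its BMPC libraries lay above those of the 3 other spleen groups and overlapped those of B220-2NBDG+. The share of all genes that separate from those 3 groups is not given here, so nothing is read from the separation. The 95% interval of the bone marrow difference ran from -0.44 to 1.72, so its direction is not settled. By group mean alone, Cox6a2 and Cox4i2 ranked differently in bone marrow: BMPC held the highest mean of Cox4i2 (44.6 ± 22.6 TPM, SD, n = 3) and the second lowest of Cox6a2.

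The remaining members showed no called 2NBDG difference. In limma 0 of the 10 members were called for 2NBDG, against 6.46% of all genes, and 2 of them (Cox6a2 and Cox4i2) had an unadjusted p under 0.05. The members' median difference was -0.04 and that of all tested genes -0.04 (log2). The 95% intervals were narrow for the abundant forms. For Cox4i1 the fold lay between 0.937 and 1.11, for Cox6b1 between 0.854 and 1.04, for Cox7a2l between 0.869 and 1.13, for Cox7a2 between 0.812 and 1.06, for Cox8a between 0.790 and 1.15 and for Cox6a1 between 0.824 and 1.29. For Cox7a1 and Cox6b2 the intervals ran from 0.513 to 1.49 and from 0.373 to 1.47, so folds within these ranges remain compatible with the data. The interaction was called for 0 of 10 members, against 0.0267% of all genes, with 1 at an unadjusted p under 0.05 (Cox6a2). Nothing is read from this count, since the interaction also compares B220 differences. The shares of Cox7a1 and Cox6b2 were 0.512% to 1.05% and 0.148% to 0.628% of their pairs by group mean, and their 2NBDG differences were -0.163 and -0.0746 points (exact permutation test, p = 0.69 and 0.565, adjusted over the 4 pairs p = 0.69 for both).

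The calls of the abundant members depended on the scaling. On TPM as deposited, with immunoglobulin genes in the total, 6 of 10 members were called lower in 2NBDG+ cells (Cox4i1, Cox6a1, Cox6b1, Cox7a2, Cox7a2l and Cox8a, limma adjusted p), beside 73.4% of all tested genes. For B220 the same scale called 7 of 10 beside 61.0% of all genes. Cox6a1 and Cox4i1 changed direction between the scales, while the other 4 were below 0 on both. The factor that rescaled the libraries differed by 0.709 (log2) between 2NBDG+ and 2NBDG- groups, and the median 2NBDG difference of all tested genes was -0.21 on deposited TPM against -0.04. Immunoglobulin transcripts held 91.1% to 96.6% of the deposited TPM. The shares within a pair do not depend on this factor.

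The B220 and bone marrow comparisons were used in choosing the members, so nothing is read from the count past the limma threshold, which was 1 of 10 in each (Cox6a2), beside 8.65% and 1.92% of all tested genes. The other 8 members besides Cox6a2 and Cox4i2 had B220 differences of -0.72 (Cox6b2, 0 to 11 reads) to 0.15 (Cox6a1), beside a median of -0.09 over all tested genes. In bone marrow Cox6a1 had 413.3, 366.5 and 311.3 TPM against 481.3, 565.5 and 438.9 in spleen B220-2NBDG+ cells, without overlap (log2 -0.45 ± 0.21, SE). Cox7a2l had 185.9 to 214.7 TPM in BMPC and 162.9 to 176.7 TPM in that spleen group, also without overlap and in the other direction (0.22 ± 0.12). Non-overlap of these groups was seen for 23.7% of all genes, 4.62% higher and 19.1% lower. The comparisons share the B220-2NBDG+ spleen libraries.

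**Figure D3:**
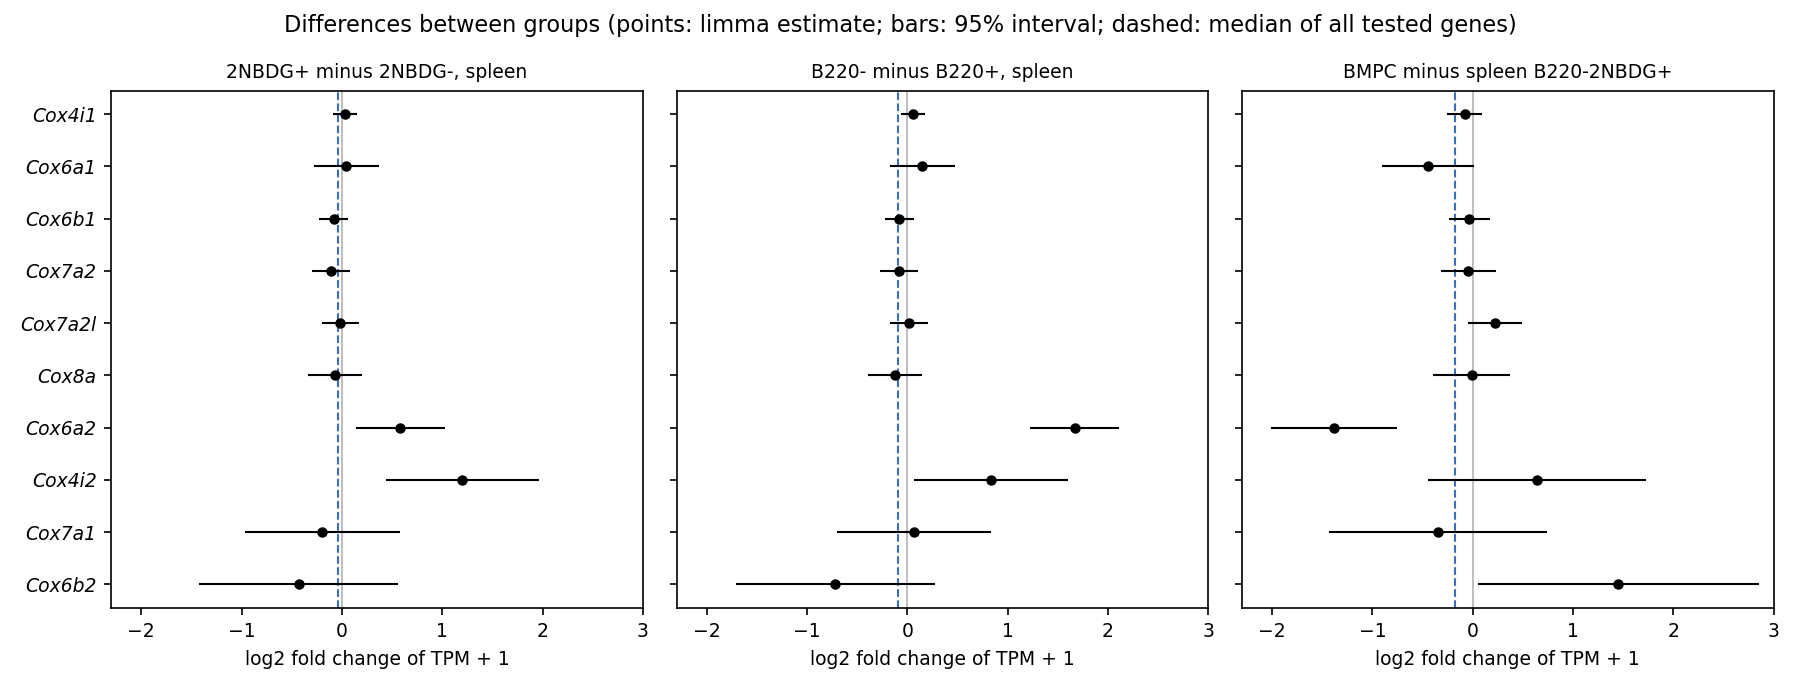
Differences of the 10 genes between groups (horizontal axis, log2 fold change of TPM + 1): 2NBDG, B220 and bone marrow; points are limma estimates, bars 95% intervals and dashed lines the median of all tested genes. Cox6a2 lies at 0.58, 1.67 and -1.38 and Cox4i2 at 1.20, 0.84 and 0.64, while the abundant isoforms lie between -0.45 and 0.22 in every panel.

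Of 10 other nuclear subunits of the enzyme 7 were tested, and 1 was called for B220, a share near the 8.65% of all genes. This gene, Ndufa4l2, the hypoxia-inducible relative of the subunit Ndufa4, rose with loss of B220. It had 0.351 to 2.35 TPM with B220 and 4.36 to 5.65 TPM without it in 2NBDG- cells, and 2.82 to 4.82 with and 5.29 to 6.60 TPM without it in 2NBDG+ cells. BMPC had 1.09 to 3.03 TPM, and the libraries held 3 to 38 estimated reads of it. The B220 difference was 1.03 ± 0.22 (SE, log2, limma adjusted p 0.0104). In bone marrow it was -1.27 ± 0.31 (adjusted p 0.0542) and for 2NBDG 0.71 ± 0.22 (adjusted p 0.0749), both not called. The call for B220 was lost without the first or the second library of every group (adjusted p 0.12 and 0.237). Its abundant relative Ndufa4 had group means of 798.7 to 1127 TPM, with a B220 difference of -0.23 ± 0.11 (adjusted p 0.230), and Cox7c, a small structural subunit, 437.4 to 512.2 TPM with -0.05 ± 0.10 (adjusted p 0.814). No other gene of the list was called in the 3 comparisons, whose medians were -0.18 for 2NBDG, -0.14 for B220 and 0.01 for bone marrow, against -0.04, -0.09 and -0.18 over all genes. For 2NBDG 4 of the 7 had an unadjusted p under 0.05 (limma), against 1 each for B220 and bone marrow. Of these 4, Ndufa4 (-0.27, log2), Cox6c (-0.26) and Cox7b (-0.19) were lower in 2NBDG+ cells, and Ndufa4l2 was higher.

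The mitochondrially encoded catalytic subunits were not called in any comparison (limma, 0 of 3; 2 at an unadjusted p under 0.05 for 2NBDG and 0 for B220 and bone marrow). mt-Co3 had group means of 8267 to 12070 TPM and a 2NBDG difference of 0.32 ± 0.12 (SE, log2; limma adjusted p 0.143). The values of mt-Co2, the subunit that receives electrons from cytochrome c, were 4863 to 6159 TPM and 0.20 ± 0.12 (adjusted p 0.363).

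Among 28 assembly, copper and haem factors 25 were tested, and 1 was called for 2NBDG, beside 6.46% of all genes. This gene, Surf1, which helps to build the catalytic core, rose with 2NBDG. The 2NBDG- means were 92.0 ± 7.28 TPM (SD, n = 3) with B220 and 97.3 ± 8.3 TPM without it, against 117.9 ± 12.3 and 121.6 ± 4.92 TPM in 2NBDG+ cells, and BMPC had 114.3 ± 10.1 TPM. The 2NBDG difference was 0.34 ± 0.08 (SE, log2; limma adjusted p 0.0292). This call was lost when only protein-coding transcripts were summed (adjusted p 0.287) and in 8 of 15 fits with 1 library left out (0.0587 to 0.0732). Those were B220+2NBDG- library 1, B220-2NBDG- libraries 1 and 3, B220+2NBDG+ libraries 1 and 2, and each B220-2NBDG+ library. The call was also lost without replicate 1, 2 or 3 of every group (limma adjusted p 0.3355, 0.2055 and 0.0786). On deposited TPM the difference was -0.31 and Surf1 was called lower (limma adjusted p 0.00643), beside 73.4% of all tested genes called lower. Cox17, the copper chaperone of the enzyme, and Coa3, an early assembly factor, had means of 615.2 to 714.8 and 376.6 to 451.8 TPM and were not called in any comparison. For B220 and bone marrow 0 of 25 were called (limma; 3 and 4 at an unadjusted p under 0.05).

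Cycs, the somatic cytochrome c, had group means of 10.4 to 16.9 TPM and was not called, and its testis form Cyct did not pass the filter. Of 17 regulators 15 were tested and 0 were called in the 3 comparisons (1, 1 and 2 at an unadjusted p under 0.05). Mef2c, a transcription factor of muscle and B cells, had group means of 724.9 to 882.1 TPM. Chchd2, a mitochondrial protein that also acts on Cox4i2 transcription, had 126.4 to 146.7 TPM in the spleen groups and 90.4 ± 2.88 TPM (SD, n = 3) in BMPC, a difference from spleen B220-2NBDG+ of -0.59 ± 0.29 (SE, log2; limma adjusted p 0.335).

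**Figure D4:**
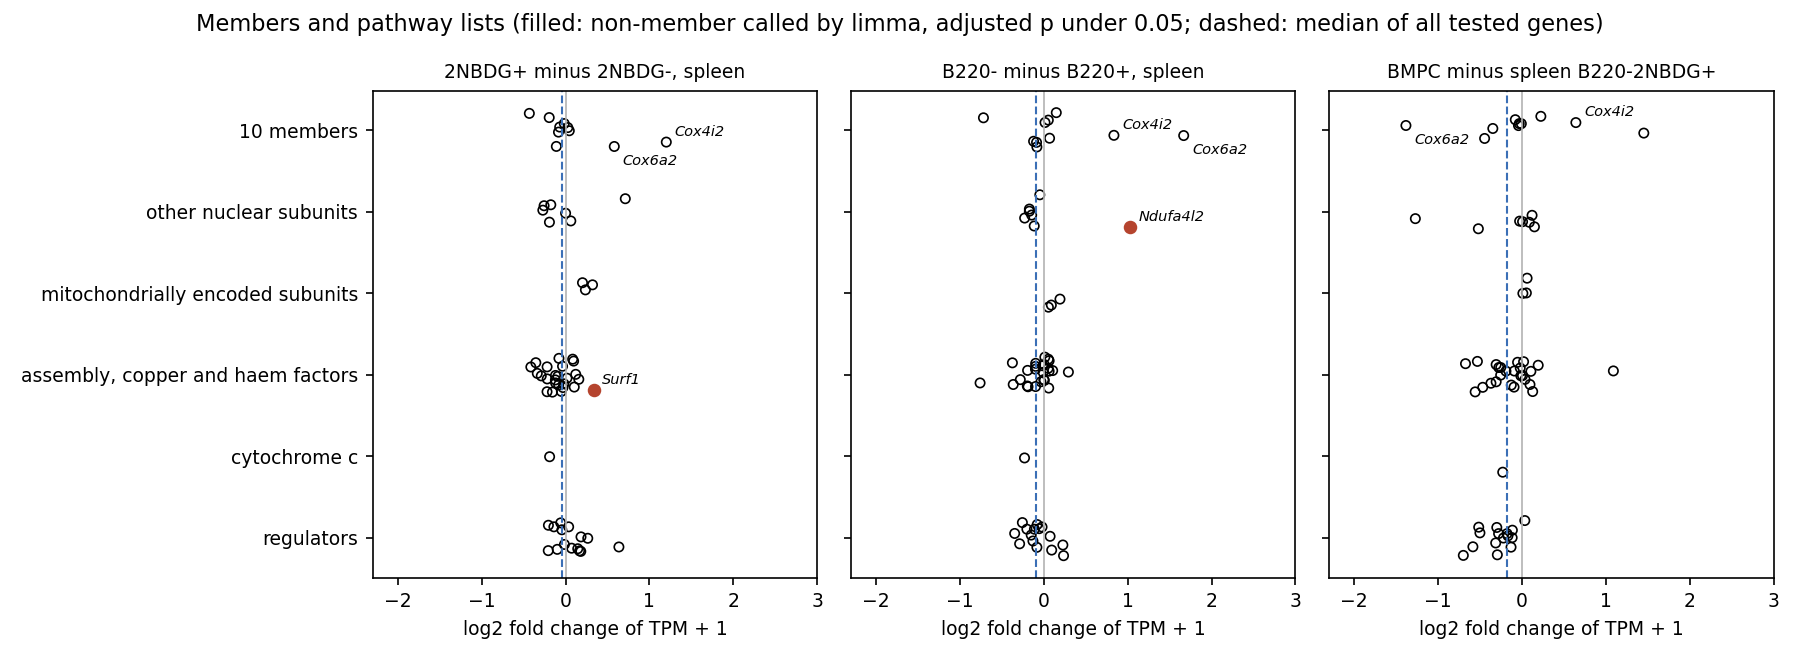
Log2 fold changes of TPM + 1 (horizontal axis) of the 10 members and of 5 lists of the same pathway in the 2NBDG, B220 and bone marrow comparisons; each point is a gene, filled where a gene that is no member was called, and dashed lines mark the median of all tested genes. Surf1 (0.34, 2NBDG) and Ndufa4l2 (1.03, B220) are the filled points.

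The genes whose level over the 15 libraries was most like that of Cox6a2 had Pearson r of 0.9 (Ly6k, a GPI-anchored surface protein), 0.899 (Tmed3, of cargo transport from the ER), 0.871 (Atraid), 0.870 (Wls, the Wnt sorting receptor) and 0.865 (Cabcoco1), among 10568 eligible genes. Ly6k, for example, averaged 159 and 445 TPM in 2NBDG- cells with and without B220, 352 and 709 TPM in the same classes with 2NBDG, and 313 TPM in bone marrow. The most opposite were Il2rb, a receptor chain for IL-2 and IL-15 (-0.897), the kinetochore genes Cenpf (-0.843) and Cenpq (-0.817), Tmem52 (-0.831) and Arhgef39 (-0.827). These values describe the same 15 libraries, which share groups and depth. No member came near them: r to Cox6a2 was 0.348 for Cox6a1, 0.17 for Cox4i2 and -0.484 to 0.205 for the others.

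The neighbours of Cox6a2 were examined too. Of 7 protein-coding genes that start within 100000 bp, 5 were tested and none was called in the 2NBDG, B220 or bone marrow comparison (limma). The overlapping Itgad averaged 8.13 and 8.52 TPM in 2NBDG- cells with and without B220, 23.6 and 13.2 TPM in the same classes with 2NBDG, and 3.42 TPM in bone marrow, with a B220 difference of -0.42 (log2, adjusted p 0.690) and an r to Cox6a2 of 0.169. The integrin gene Itgax, which encodes the CD11c used as a negative sort marker, had group means of 0.504 to 1.32 TPM. Armc5 and BC017158 had means of at most 1.16 TPM, 9130023H24Rik 2.85 to 4.07 TPM, and Tgfb1i1 and Slc5a2, not tested, at most 0.630 TPM.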

How the data were processed

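RNA of 15 libraries was extracted with the NucleoSpin XS kit and made into libraries with Clontech Smartseq and Nextera, per the labels' protocols. The deposited table holds TPM by the authors for 63553 transcripts, made with Salmon 0.9.1 on GRCm38.p6 per the submitters' processing notes. Lengths and effective lengths (length minus 249 for 96.4% of transcripts) stand beside them and have no sample, per the file headers. TPM was summed per gene symbol, 262 immunoglobulin genes (GENCODE M21) were removed, and the rest was rescaled to 1000000, a factor of 11.2 to 29.3. Reads were estimated from TPM and effective length: 72.3% to 74.9% of values of at most 20 reads, of genes with 1 transcript of at least 500 nt, came within 0.05 of a whole number.

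The 11246 genes that reached 1 TPM in 3 or more libraries were tested on log2(TPM + 1) with limma 3.58.1 (R 4.3.3), a model of 5 group means with a trend, two-sided and with Benjamini-Hochberg adjustment over all genes, called at 0.05. The script was tested on simulated data. P-values measure the spread between these replicates. Fold changes on this scale understate the change of low genes. Shares of an isoform pair were tested by exact permutation within B220 strata. The coding sequences were aligned with Biopython 1.88.

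The members, the gene lists and the markers were chosen with earlier results of these data known. Named genes were the members, up to 3 called genes per pathway list, comparison and direction with the largest change (else the 2 most expressed), the 5 genes most and least like Cox6a2 by Pearson r, and its neighbours. Same-numbered libraries of B220+ and B220- groups deviated together in each of 6 pairs (r 0.193 to 0.415), so the numbers pair the libraries of that comparison, though the labels do not say what they share. The model reported has no block. With the replicate number as a block 1136 genes were called for B220 against 973, and no call of a member or of Ndufa4l2 changed. Alternatives were another pseudocount, scaling, filter, transcript set and sample set, the replicate block and libraries left out. One of them, leaving out a replicate number in every group, was chosen after seeing the data.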

Additional observations from a re-analysis of the deposited data

How the results depend on the processing

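Which members were called depended on the scaling and, for bone marrow, on several other choices, with the Cox6a2 call lost in 11 alternative fits and kept in the rest. For 2NBDG the count of called members was 6 on TPM as deposited, against 0, and 0 to 1 with 1 library left out. The 1 was Cox4i2, called without B220-2NBDG- replicate 1 (adjusted p 0.0435), B220-2NBDG+ replicate 2 (0.0455) or BMPC replicate 1 (0.0399). The members' calls for B220 and bone marrow carry no weight as tests, since these comparisons chose the set, and are given as values. For B220 the count was 7 on deposited TPM, against 1, and 1 to 2 with 1 library left out (Cox4i2 added without B220-2NBDG- replicate 2, adjusted p 0.0410). For bone marrow the count fell from 1 to 0 on deposited TPM, with median-of-ratios scaling, without the filter, with only the 6 libraries of both groups, without any 1 of the B220-2NBDG+ libraries or BMPC replicate 1 or 2, and without replicate 1 or 2 of every group. Leaving out 1 library gave 0 to 1. The Cox6a2 difference in bone marrow was -0.75 on deposited TPM, -1.16 with median-of-ratios scaling and -1.17 to -1.52 in those single-library fits, always lower. Deposited TPM reversed the 2NBDG differences of Cox6a1 (-0.64), Cox4i1 (-0.67) and Surf1 (-0.31) and the B220 differences of Cox4i1 (-0.44) and Cox7a2l (-0.44), by the change of total. The share of Cox4i2 differed by 0.871 points with the replicate block (adjusted p 0.125) and by 0.722 to 1.10 with 1 library left out, and by 0.811, 1.03 and 0.774 without replicate 1, 2 or 3 of every group, with adjusted p 0.222, 0.222 and 0.444. These 3 tests could not pass the threshold, since the smallest exact permutation p their arrangements allow is 0.0556. For the block the smallest is 0.0312, and passing after adjustment would have needed other isoform pairs at so low a p. Same-numbered libraries of 2NBDG+ and 2NBDG- groups correlated at 0.089 to 0.307, 1 of 6 pairs under 0.1, and those of BMPC and B220-2NBDG+ at -0.191 to -0.029, so neither comparison met the rule for pairing that every pair exceed 0.1. Each of the 6 pairs of 2NBDG groups correlated best with its own number, a hint from the data only, and none of the BMPC pairs did. The replicate block changed no count of called members. The causes of the other changes were not tested. Depth limits Cox7a1 and Cox6b2, with at most 11 reads.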

Other observations

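Cox8c, the testis form of subunit VIII and no member, was chosen here after its values were seen. It was listed at 0 in 12 libraries and had 0.488 to 1.14 TPM, on 1 to 2 estimated reads, in the 3 libraries of B220-2NBDG-. Cox7b2, another testis isoform, had 1 to 3 estimated reads in 8 libraries, spread over all 5 groups. Neither passed the filter, and no comparison was made at this depth.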
